A study of Mus musculus with 6 samples.

Results

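The miR-132 and miR-212 cluster was examined through its 4 mature arms, mmu-miR-132-3p, mmu-miR-132-5p, mmu-miR-212-3p and mmu-miR-212-5p, which were chosen by name from the 1915 mature miRNAs listed in each library. All 4 arms were detected in every library and passed the filter on low counts. The tissue was whole brain of untreated wild-type C57BL/6 mouse embryos, dissected at E15.5, and each sex was represented by 3 libraries. Each library pooled the RNA of 2 to 3 embryos, sexed by the testicular cords, so that pools and not single embryos are the replicates. Because whole brain was sequenced in bulk, fewer cells that express a miRNA and less of it per cell cannot be told apart.

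miR-132 and miR-212 are processed from one primary transcript. In neurons this transcript is known to be switched on by synaptic activity and by the neurotrophin BDNF through CREB, a transcription factor that binds the cAMP response element (CRE). The 3p arms are the arms best known for function: miR-132-3p promotes the growth of dendrites. Either arm of a hairpin can be loaded into the silencing complex, and the bases that pair with targets first are the seed, bases 2 to 8 from the 5′ end.

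The mature sequences, from RefSeq on build GRCm38.p6 and matched by name for 4 of 4 arms, are shown first because they set which arms can share targets. The seed is in capitals.
mmu-miR-132-3p: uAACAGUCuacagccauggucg
mmu-miR-212-3p: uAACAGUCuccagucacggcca
mmu-miR-132-5p: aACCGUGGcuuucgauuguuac
mmu-miR-212-5p: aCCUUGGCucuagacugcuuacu
The 3p arms carried one seed, AACAGUC, and were identical over their first 9 bases and at 17 of 22 positions. Their 5 substitutions, written as the base of miR-132-3p, the position from the 5′ end and the base of miR-212-3p, were A10C, C14U, U17C, U20C and G22A. Among 1679 mature mouse sequences in RefSeq, no other miRNA held this seed. The 5p arms had different seeds, ACCGUGG and CCUUGGC, which no other of these sequences held either, and they shared 14 of 21 aligned bases once shifted by 1 base. Among these sequences the 3p arms therefore form a seed family of 2, and the 5p arms stand alone. Of the miRNAs whose summed count reached 10 reads, 84.9% had a sequence there by name, and the others were not searched. The GC content was 50% for miR-132-3p, 45.5% for miR-132-5p, 54.5% for miR-212-3p and 47.8% for miR-212-5p.

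The hairpins are shown with both mature arms in capitals, the 5p arm first, to give the context of arm choice.
Mir132: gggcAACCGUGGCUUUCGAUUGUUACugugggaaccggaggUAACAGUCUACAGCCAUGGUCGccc
Mir212: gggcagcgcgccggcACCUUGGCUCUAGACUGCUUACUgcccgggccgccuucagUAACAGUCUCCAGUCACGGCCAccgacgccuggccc
In the structure of lowest predicted energy (RNAfold), the Mir132 hairpin had a free energy of -37.2 kcal/mol and the Mir212 hairpin -41.5 kcal/mol. Of the first 4 bases of each 3p arm, 4 were paired in the predicted fold, with 3 A-U pairs and 1 G-C pair in either hairpin. In the 5p arm of Mir132, 3 of the first 4 bases were paired (2 G-C and 1 A-U), and in that of Mir212, 2 were paired (both G-C). The ends of the 3p arms were thus alike in the predicted folds, whereas those of the 5p arms differed.

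On mm9, the build the reads were mapped to, the Mir212 hairpin lies on the forward strand at chr11:74986890-74986980 and the Mir132 hairpin at chr11:74987184-74987249. The intervening stretch is 203 bases long. In the GENCODE annotation of this build both hairpins fall within an intron of the long noncoding RNA 1700016P03Rik, between its exons at chr11:74986062-74986099 and chr11:74987480-74987663. The palindromic full CRE, TGACGTCA, which reads the same on both strands, was searched over the 4360 bases of chr11:74983890-74988249. It occurred 3 times, at chr11:74986772-74986779 and chr11:74986788-74986795 before the Mir212 hairpin and at chr11:74987148-74987155 between the hairpins. The 130 bases up to the Mir212 hairpin, chr11:74986760-74986889, and the 203 bases between the hairpins, chr11:74986981-74987183, both on the forward strand, are printed with the CREs in capitals.
upstream of Mir212: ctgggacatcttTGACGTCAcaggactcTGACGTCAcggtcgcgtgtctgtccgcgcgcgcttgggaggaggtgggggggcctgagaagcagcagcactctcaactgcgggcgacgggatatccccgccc
between Mir212 and Mir132: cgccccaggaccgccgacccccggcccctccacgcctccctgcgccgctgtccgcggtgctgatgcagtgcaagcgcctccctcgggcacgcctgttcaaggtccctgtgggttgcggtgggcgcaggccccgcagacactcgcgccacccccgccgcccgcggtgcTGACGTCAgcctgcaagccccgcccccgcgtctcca
The window chr11:74986640-74986939, set around the first base of the Mir212 hairpin, held 2 full CREs. Of 32851 RefSeq promoter windows of the same length, 300 bases, 1.79% held at least 1 and 13 windows, or 0.0396%, held at least 2. Those windows are set on gene starts (GRCm38.p6) and this one on the start of a hairpin, and a match of letters does not show that CREB was bound in these embryos.

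**Figure D1:**
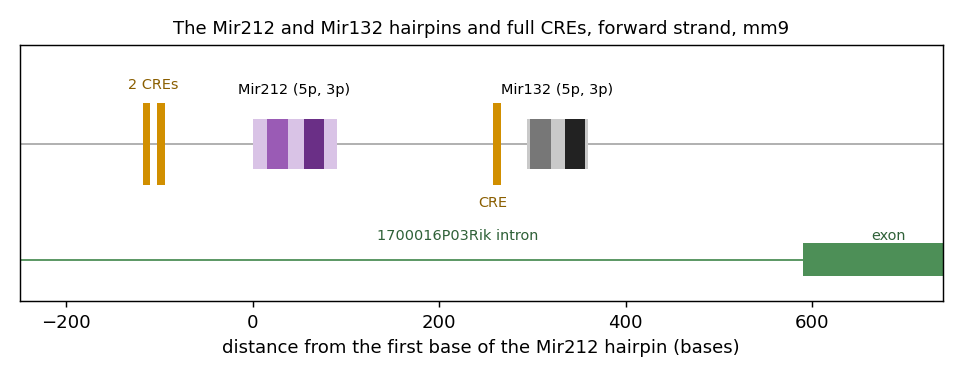
Map of the cluster on the forward strand of mm9, with the distance from the first base of the Mir212 hairpin on the x axis in bases. Light boxes are hairpins, dark boxes the 5p and 3p arms, gold bars the 3 full CREs, and the green line and box the intron and an exon of 1700016P03Rik; 2 CREs lie before Mir212 and 1 between the hairpins.

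The libraries held 14802675 to 59362011 reads on miRNAs. Female library 2 was the deepest and detected the fewest miRNAs, 660 against 790 to 915 in the other 5. Values without it are given for the arm ratios within each hairpin, the sex differences of the cluster's arms and the correlations between these arms. For the ratios across the hairpins, such a value is given only for the female mean log2 ratio of miR-132-5p to miR-212-3p. No such values are given for single miRNAs outside the cluster or for their correlations with its arms. The brain markers miR-9-5p, miR-124-3p, miR-128-3p, miR-137-3p, miR-218-5p and miR-153-3p together took 197194 to 218455 reads per 1000000 reads of the library total (CPM) in females and 166219 to 191776 CPM in males. Markers of other tissues were also present, with no list having a member at 0 in all libraries. The summed level of 3 skeletal muscle miRNAs was 388.0 to 1166 CPM in females and 5452 to 6099 in males, that of 3 epithelial miRNAs 338.4 to 954.0 and 7373 to 7676, and that of 2 mesenchymal miRNAs 228.5 to 993.3 and 2543 to 2940. Red blood cell markers were at 646.2 to 1354 CPM in females and 1595 to 1972 CPM in males, and the ranges of the vessel, leukocyte and liver markers overlapped. The part of these markers in the values of miR-132 and miR-212 was not tested.

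miR-132-3p was by far the most abundant product of the cluster, and miR-212-5p, not miR-212-3p, came next. Levels are given as CPM of the library total, which is a share of reads and not a number of molecules, since different sequences are ligated and amplified with different efficiency. The level of miR-132-3p was 318.4 CPM in female library 1, 288.1 in female library 2 and 247.7 in female library 3, against 360.7, 321.4 and 360.8 CPM in male libraries 1 to 3. The sexes did not overlap on this scale, with male library 2 nearest to female library 1. The mean over the 6 libraries was 316.2 ± 43.6 CPM (SD, n = 6), which placed it 161st among the 1163 miRNAs with a read in any library.

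The second arm in order, miR-212-5p, had 36.5 CPM in female library 1, 50.4 in female library 2 and 43.3 in female library 3, against 40.7, 43.9 and 45.2 CPM in male libraries 1 to 3. The sexes overlapped, with female libraries at both ends. Its mean was 43.3 ± 4.64 CPM (SD, n = 6). On this scale of the library total it had the smallest coefficient of variation of the 4 arms, 10.7%. That of miR-132-3p was 13.8%, that of miR-132-5p 23.0% and that of miR-212-3p 28.9%. After the TMM scaling used below, miR-212-5p ran from 35.6 CPM in male library 1 to 57.1 CPM in female library 2. On that scale miR-132-3p ran from 252.4 CPM in female library 3 to 348.4 CPM in male library 3. Which of these 2 arms varied less thus depended on the scaling.

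The less abundant arm of its hairpin, miR-132-5p, had 31.8 CPM in female library 1, 15.6 in female library 2 and 29.4 in female library 3, against 26.4, 24.7 and 22.1 CPM in male libraries 1 to 3. The male libraries fell within the range of the females, whose lowest value was that of female library 2. miR-212-3p, the seed partner of miR-132-3p, had 15.3 CPM in female library 1, 12.2 in female library 2 and 22.0 in female library 3, against 27.1, 25.9 and 25.3 CPM in male libraries 1 to 3. Each male value was higher than each female value, and the males spread less (SD 0.949 CPM) than the females (SD 5.02 CPM).

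**Figure D2:**
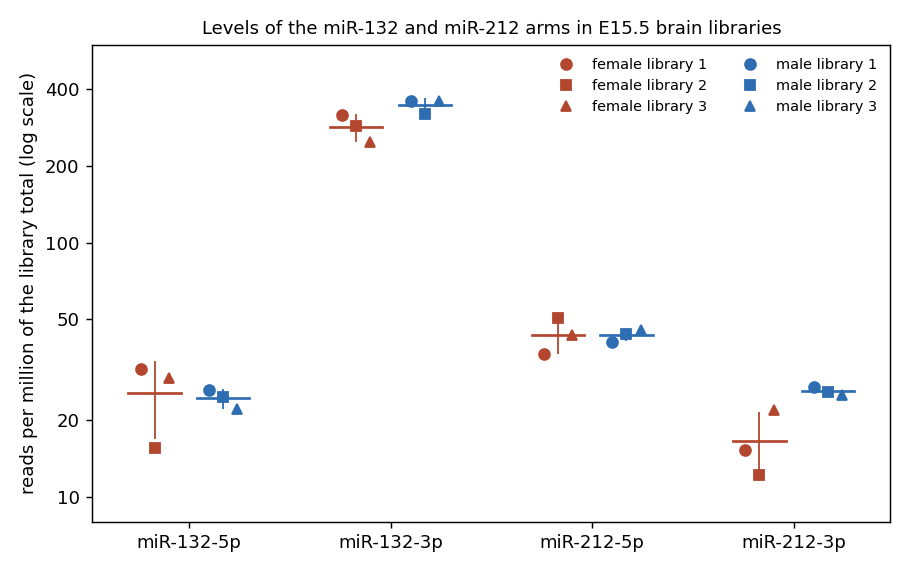
CPM of the library total (log axis) for the 4 arms, with 1 point per library, horizontal bars for the mean of 3 libraries of a sex and vertical bars for ± 1 SD. miR-132-3p lies between 247.7 and 360.8 CPM and the other arms between 12.2 and 50.4 CPM.

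By mean level the order was miR-132-3p, miR-212-5p, miR-132-5p (25.0 ± 5.75 CPM, SD, n = 6) and miR-212-3p (21.3 ± 6.16 CPM, SD, n = 6). The first step of this order, and that from miR-212-5p to miR-132-5p, held in 6 of 6 libraries. The last step did not: miR-132-5p lay above miR-212-3p in 3 of 3 female libraries. In 3 of 3 male libraries it lay slightly below, at 0.876 to 0.974 of the reads of miR-212-3p. The log2 ratio of miR-132-5p to miR-212-3p averaged 0.61 ± 0.39 for the females and -0.10 ± 0.08 for the males (SD, 3 libraries each), and 0.73 for the females without female library 2. A two-sided exact permutation test between the sexes gave p = 0.1, the smallest p that 3 libraries against 3 allow, so it cannot reach the threshold of 0.05. This was 1 of 6 contrasts between the 4 arms and was singled out after its values were seen. Over all 6 libraries, the exact sign-flip permutation test of a mean log2 ratio of 0 gave p = 0.25. That test pools female and male ratios of opposite sign, so it does not show the 2 arms to be equal.

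The 4 arms together took 342.5 to 402.0 CPM in the female libraries and 416.0 to 455.0 CPM in the male ones. On this scale of the library total, 23.9% of single miRNAs tested also had the sexes apart. After the TMM scaling used below, miR-132-3p, the largest part, overlapped, with 326.1 CPM in female library 2 and 315.1 CPM in male library 1. The sum itself was not tested. Within this sum, miR-132-3p took 77.7% ± 2.76 (SD, n = 6), miR-212-5p 10.8% ± 1.97, miR-132-5p 6.23% ± 1.70 and miR-212-3p 5.23% ± 1.32. The arms with the shared seed made up 82.9% ± 2.40 of the reads of the cluster. Of the reads with that seed, 93.7% ± 1.63 came from miR-132-3p, from 91.8% in female library 3 to 95.9% in female library 2.

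The hairpins differed in which arm held more reads. In Mir132 the 3p arm was dominant in every library, and in Mir212 the 5p arm was. Of the reads of the miR-132 pair, the 3p arm held 90.9% in female library 1, 94.9% in female library 2 and 89.4% in female library 3, against 93.2%, 92.9% and 94.2% in male libraries 1 to 3. Of the reads of the miR-212 pair it held 29.6%, 19.5% and 33.7% in females, in the same order, against 39.98%, 37.1% and 35.9% in males. No library had the miR-212 share above 50%, and none had the miR-132 share below it. The widest 95% Wilson interval was that of miR-212 in female library 1, from 26.5% to 32.9%, which covers counting error only and treats reads as independent although PCR copies are not.

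The miR-132 3p reads exceeded the 5p reads 12.8-fold on geometric average, from 8.41-fold in female library 3 to 18.5-fold in female library 2. For miR-212 the 3p reads were 0.475 of the 5p reads, from 0.242 in female library 2 to 0.666 in male library 1. The log2 ratio of 3p to 5p was 3.68 ± 0.43 (SD, n = 6) for miR-132 and -1.07 ± 0.52 (SD, n = 6) for miR-212. The directions were the same in 6 of 6 libraries, with p = 0.03125 for each in the exact sign-flip permutation test over libraries (two-sided; 0.03125 also after Benjamini-Hochberg adjustment over 4 comparisons, and the smallest p that 6 libraries can give). The difference between the hairpins in this ratio was 4.76 ± 0.78 log2 units (SD, n = 6; exact sign-flip permutation p = 0.03125), and its lowest value in any library was 4.05. Without female library 2 the mean log2 ratios were 3.58 and -0.88.

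Across the hairpins, the 3p and 5p sides also ran in opposite directions. On the 3p side miR-132 exceeded miR-212 by 15.3-fold on geometric average, from 11.2-fold to 23.6-fold. On the 5p side miR-132 held 0.566 of the reads of miR-212, from 0.309 in female library 2 to 0.872 in female library 1. Both directions held in 6 of 6 libraries (exact sign-flip permutation test, p = 0.03125 for each, adjusted 0.03125).

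**Figure D3:**
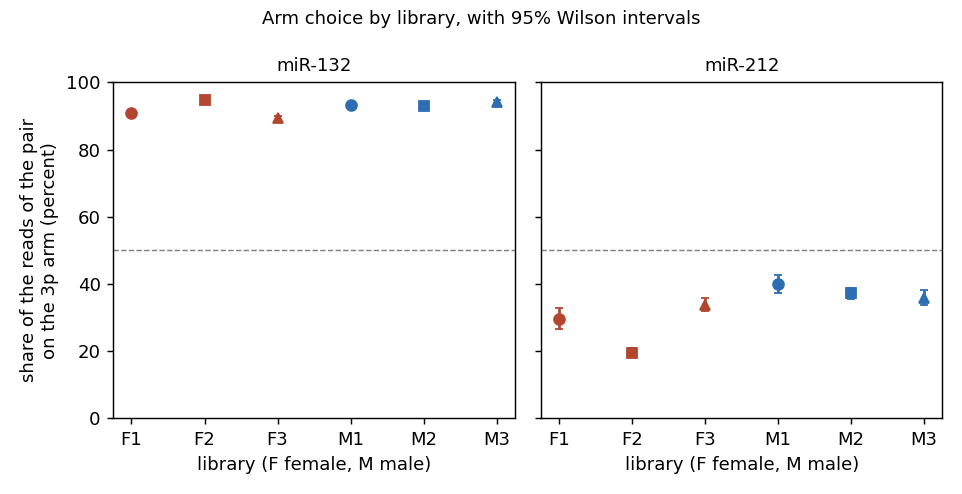
Share of the reads of each pair that fell on the 3p arm (percent, y axis) in the 6 libraries (x axis), with 95% Wilson intervals and a dashed line at 50%. The miR-132 share lies between 89.4% and 94.9% and the miR-212 share between 19.5% and 39.98%.

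Among all miRNAs with both arms listed, 254 pairs had a mean of at least 10 reads in each arm. In 122 of them the 3p arm was higher on average, in the others the 5p arm was, and in 208 pairs, or 81.9%, the same arm was higher in all 6 libraries. The miR-132 pair lay at the 71.3 percentile of the log2 ratio of 3p to 5p. The miR-212 pair lay at the 46.9 percentile, and its ratio was among the more even ones: the size of the log2 ratio, regardless of direction, was at the 11.02 percentile for miR-212 and the 41.7 percentile for miR-132, with a median of 4.63 over all pairs. The SD of the log2 ratio over libraries was 0.43 for miR-132 and 0.52 for miR-212, below the median of 0.91 over all pairs, many of which have fewer reads.

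**Figure D4:**
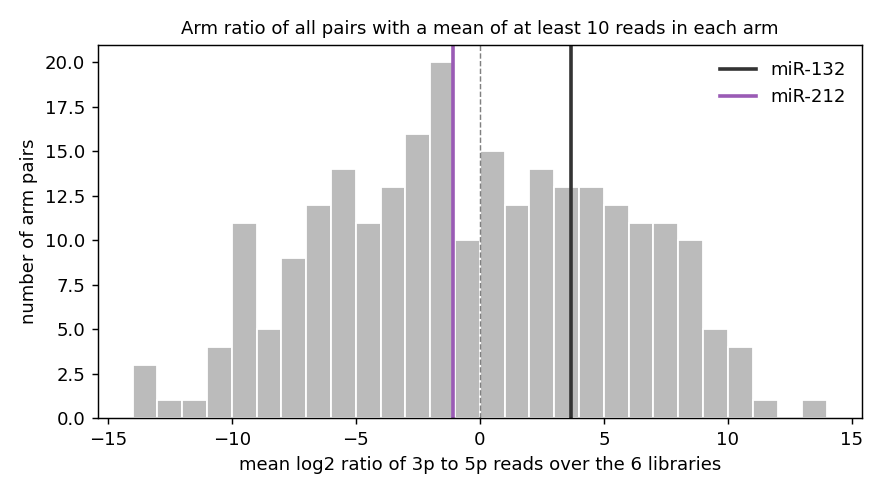
Histogram of the mean log2 ratio of 3p to 5p reads over the 6 libraries for the 254 pairs with a mean of at least 10 reads in each arm (y axis, number of pairs). The lines mark miR-212 at -1.07 and miR-132 at 3.68, on either side of the dashed line at equal arms.

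The study compared the sexes, and none of the 4 arms passed the threshold for a sex difference. After scaling by TMM, which moved library sizes by factors of 0.883 to 1.14, the log2 fold change of male over female was 0.16 (95% interval -0.25 to 0.57) for miR-132-3p and -0.17 (-0.97 to 0.62) for miR-132-5p. It was 0.54 (-0.30 to 1.38) for miR-212-3p and -0.14 (-0.81 to 0.53) for miR-212-5p. Adjusted p-values in edgeR's quasi-likelihood test lay between 0.480 and 0.870, and 0 of the 4 arms were past the threshold, against 8.48% of the 1120 miRNAs tested. At an unadjusted p below 0.05 there were also 0 of the 4 arms, against 18.4% of all tested. The intervals leave room for a 1.48-fold higher level of miR-132-3p in males and a 2.61-fold higher level of miR-212-3p, so equal levels are not shown. Without female library 2 the log2 fold changes were 0.23 for miR-132-3p, -0.40 for miR-132-5p, 0.41 for miR-212-3p and 0.05 for miR-212-5p, the last with its sign turned. An offset for GC content moved the median log2 fold change of all tested miRNAs by -0.33 and turned the sign of both 3p arms, to -0.30 for miR-132-3p and -0.08 for miR-212-3p.

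On the scale of the library total, 2 of the 4 arms, both 3p arms, had the sexes apart, as did 23.9% of the miRNAs tested. After TMM only miR-212-3p did, against 23.8% of the miRNAs tested: its scaled values were 15.2, 13.8 and 22.5 CPM for females 1 to 3, against 23.7, 26.9 and 24.4 CPM for males 1 to 3. miR-132-3p overlapped on that scale, with 326.1 CPM in female library 2 and 315.1 CPM in male library 1. The separation of miR-132-3p by sex thus depended on the scaling.

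Arm choice was compared between the sexes on the log2 ratio of 3p to 5p, in which library size cancels. The ratio of miR-212 averaged -1.42 ± 0.56 for the 3 female libraries and -0.73 ± 0.13 for the 3 male libraries (SD), with each male library nearer to equal arms than each female library. The sexes were apart in this way in 21.7% of the 254 pairs. The difference was 0.69 (95% interval -0.29 to 1.68; adjusted p = 0.525 in limma over the 254 pairs), and without female library 2 it was 0.38. The ratio of miR-132 averaged 3.53 ± 0.60 for females and 3.83 ± 0.17 for males (SD, 3 libraries each), a difference of 0.30 (-0.73 to 1.329; adjusted p = 0.762 in limma) that was 0.63 without female library 2. Of the 254 pairs, 0 passed the threshold in limma (0%), while 23 had an unadjusted p below 0.05. On simulated counts this test recovered 52.0% of 16-fold and 1.00% of 4-fold changes in arm ratio, so that 4-fold shifts were mostly missed there. The simulation drew the 2 arms of a pair independently and placed the changes in the more abundant pairs. The ratios of miR-132 and miR-212 varied less over libraries than the median pair, so these shares need not hold for them.

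None of the 6 pairs of arms had a correlation over the libraries that passed the threshold after adjustment, and with 6 libraries several coefficients depended on 1 or 2 of them. Of the 6 pairs of arms, the largest Pearson correlation of log2 CPM in size was that of the 5p arms, miR-132-5p and miR-212-5p (r = -0.90, exact permutation p = 0.0222, adjusted 0.133; Spearman coefficient = -0.94, exact permutation p = 0.0167, adjusted 0.1; n = 6). Female library 2 was lowest in miR-132-5p and highest in miR-212-5p, and female library 1 the reverse. Without these 2 libraries, the farthest from the median of miR-132-5p, r was -0.55, so the relation rests largely on them, and without female library 2 alone it was -0.80. The 3p arms had r = 0.41 (exact permutation p = 0.411, adjusted 0.838; Spearman coefficient = 0.66, p = 0.175, adjusted 0.525), with r = 0.84 without the 2 libraries farthest from the median of miR-132-3p and 0.31 without female library 2. Within a hairpin, r was -0.02 between the arms of miR-132 (Spearman coefficient = -0.26; exact permutation p = 0.964 and 0.658) and -0.19 between those of miR-212 (Spearman coefficient = -0.26; p = 0.699 and 0.658). Without the 2 libraries farthest from the median these were 0.67 and -0.34, and without female library 2 they were -0.57 and 0.79, so neither had a stable sign. The r of miR-132-3p with miR-212-5p was -0.23 (exact permutation p = 0.672; Spearman coefficient = 0.03) and that of miR-132-5p with miR-212-3p 0.42 (exact permutation p = 0.435; Spearman coefficient = 0.09). Without female library 2 these were -0.03 and -0.78.

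The miRNAs most like each arm over the 6 libraries were picked as the 5 highest Pearson correlations of log2 CPM among 549 others whose reads averaged 100 or more per library, and being picked as the highest they carry no p. For miR-132-3p these were miR-667-3p (r = 0.98), miR-668-3p (0.96), miR-877-3p (0.96), miR-484 (0.95) and miR-154-5p (0.95). For miR-132-5p they were let-7a-1-3p and let-7c-2-3p (0.97 each, with identical counts), miR-410-3p (0.96), miR-142a-5p (0.96) and miR-16-2-3p (0.95). For miR-212-3p they were miR-322-3p (0.97), miR-194-2-3p (0.96), miR-200b-5p (0.95), miR-665-3p (0.93) and miR-218-1-3p (0.93), and for miR-212-5p miR-1982-3p (0.94), miR-34b-3p (0.89), miR-671-5p (0.87), miR-758-3p (0.87) and miR-145a-3p (0.86). No miRNA was on more than 1 of these lists. Some were at or near 0 in part of the libraries. miR-194-2-3p was at 0 CPM in female libraries 1 and 2 (Spearman coefficient = 0.75), and miR-16-2-3p at 0 CPM in female library 2. miR-200b-5p had 3.04, 0.034 and 4.89 CPM in female libraries 1 to 3, against 78.0, 63.0 and 65.5 CPM in male libraries 1 to 3. Over all pairs of miRNAs at this level the median r was 0.04 and the 90th percentile 0.79, with 6 points that share library depth and sex.

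Another 12 miRNAs known to respond to neuronal activity or to act at synapses were read from the same fit. They were chosen with earlier results of these data known, so their counts beside those of all miRNAs are description and no test of the list. In edgeR's quasi-likelihood test 2 of the 12 were past the threshold, both lower in males, against the 8.48% of all miRNAs tested, and 8 of the 12 had an unadjusted p below 0.05, against 18.4%. The median log2 fold change of the 12 was -0.38, that of the 4 arms 0.01 and that of all tested -0.02. Of the 6 brain markers, which include miR-124-3p, miR-128-3p and miR-137-3p of this list, 1 had the higher mean CPM in males, whereas all 8 muscle, epithelial and mesenchymal markers did. The part of these tissue markers in the values of the 12 was not tested. miR-137-3p, which acts on synaptic vesicle release, averaged 129 ± 41.98 CPM in the 3 female libraries and 47.7 ± 8.47 in the 3 male libraries (SD). The fold change was -1.55 on the log2 scale, with a standard error of 0.27 (edgeR, adjusted p = 0.00027), and it was past the threshold in 14 of 16 alternatives. miR-138-5p, a regulator of dendritic spine size, averaged 62.5 ± 15.6 CPM and 34.2 ± 3.54 CPM in the same libraries. The fold change was -0.99 on the log2 scale, with a standard error of 0.31 (edgeR, adjusted p = 0.0492), and it was past the threshold in 7 of 16 alternatives.

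The other 10 had log2 fold changes from -2.33 for miR-219a-5p (adjusted p = 0.0586 in edgeR) to 0.66 for miR-184-3p. miR-134-5p, which limits the size of dendritic spines, had a log2 fold change of 0.47, miR-329-3p 0.53 and miR-485-5p 0.58, while miR-379-5p and miR-381-3p had -0.58 and -0.20. miR-124-3p, the abundant miRNA of neuronal differentiation, had -0.56, and miR-128-3p -0.09. miR-188-5p, with 0 to 343 reads per library, had -0.67 with a standard error of 1.40. The count of 2 was 5 without female library 2 and 1 without female library 3 or without any 1 male library. In level, miR-132-3p lay above 7 of the 12 and below 5, between miR-381-3p (443 CPM) and miR-329-3p (214 CPM).

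**Figure D5:**
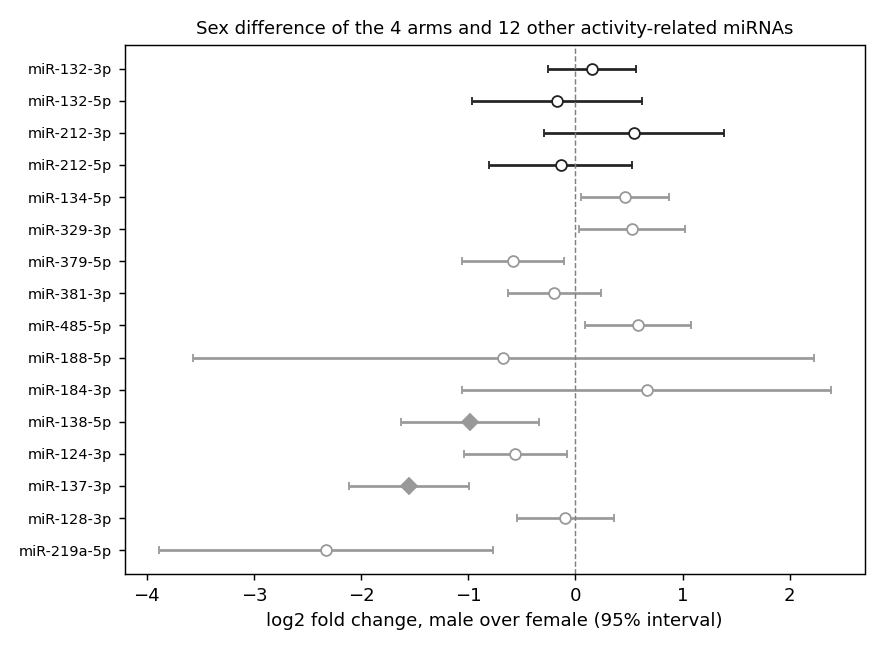
Log2 fold change of male over female (x axis) with 95% intervals from edgeR for the 4 arms (black) and the 12 other activity-related miRNAs (grey). Filled diamonds are miRNAs past the threshold of 0.05, miR-138-5p and miR-137-3p, and open circles those that are not; the intervals of all 4 arms include 0.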

How the data were processed

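Small RNA-seq was performed on whole brain RNA at E15.5, in 3 libraries per sex. The authors trimmed adaptors with cutadapt 1.15, mapped reads with Bowtie 1.2.1 to miRBase v.21 and mm9, quantified known miRNAs with miRDeep2, and deposited raw counts of reads per mature miRNA, without normalization. No library was a copy of another: of the miRNAs above 100 reads in both members of a pair, at most 0.210% had equal counts. The kit adds no molecular identifiers.

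CPM were scaled to 1000000 reads of the library total. The 1120 miRNAs whose summed count reached 10 reads were scaled by TMM and tested for sex with edgeR 4.0.16 (quasi-likelihood, R 4.3.3). The threshold was an adjusted p of 0.05 (Benjamini-Hochberg), and a standard error was taken as the fitted log2 difference, without its sign, over the root of the F statistic. Arm ratios, log2((3p + 0.5)/(5p + 0.5)), were tested in limma 3.58.1 and by exact permutation. Log2 CPM for correlations used a prior count of 2. Hairpins were folded with RNAfold 2.7.2 and placed on mm9 by exact match. DESeq2 1.42.0, RUVr written out from edgeR's deviance residuals, a GC offset (loess, span 0.75, with mature GC for 84.9% of miRNAs) and the other alternatives are given at the end. The named miRNAs are the 4 arms, the 12 of the activity list and the 5 most correlated with each arm. The members and lists were chosen with earlier results of these data known. On 5 simulated datasets, edgeR recovered 70.0% of 4-fold and 36.2% of 2-fold changes with 4.29% false calls. The changes were placed only in the more abundant miRNAs, so recovery among the less abundant ones was not measured.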

Additional observations from a re-analysis of the deposited data

Results flagged for a closer look

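By their reads, miR-132-5p and miR-212-3p stood in opposite order in the female and male libraries, but the 2 arms were near equal in male libraries 1 and 2. miR-132-5p was above miR-212-3p in each of 3 female libraries, by 2.07-fold, 1.28-fold and 1.34-fold in female libraries 1, 2 and 3, and below it in each of 3 male libraries, at 0.974, 0.953 and 0.876 of its reads in male libraries 1, 2 and 3. The male minus female difference of the log2 ratio was -0.71 (two-sided exact permutation test, p = 0.1, the smallest that 3 libraries against 3 allow). This was 1 of 6 contrasts between the 4 arms and was singled out after its values were seen. In male libraries 1, 2 and 3 the reads were 494 against 507, 1086 against 1139 and 523 against 597. No counting interval was computed for this ratio, so an order of the 2 arms in males is not shown. How often other pairs of miRNAs split by sex in this way was not counted.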

How the results depend on the processing

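None of the 4 arms passed the threshold for a sex difference in any of the 16 alternatives, in which adjusted p-values lay between 0.255 and 1.00; this limits no effect smaller than the intervals given. The log2 fold change turned its sign with the GC offset for miR-132-3p (-0.30) and miR-212-3p (-0.077), and with the GC offset and replicate block, chosen after seeing the data, for the same arms (-0.24 and -0.057). The GC offset moved the median of all tested miRNAs to -0.35, and relative to it miR-132-3p was at 0.05 and miR-212-3p at 0.27. With 1 RUVr factor the median was 0.27 in edgeR and 0.29 in DESeq2, and relative to it miR-132-3p was at -0.09 and -0.08. With 1 library left out the log2 fold change ranged from 0.05 to 0.27 for miR-132-3p, -0.40 to 0.016 for miR-132-5p (the latter without female library 1), 0.41 to 0.79 for miR-212-3p and -0.21 to 0.051 for miR-212-5p (the latter without female library 2). The number of miRNAs past the threshold, 95 (36 male-biased, 59 female-biased), was 228 and 257 with 1 RUVr factor in edgeR and DESeq2 (119 and 152 male-biased), 61 with the GC offset, 41 with the GC offset and replicate block, and 30 to 203 with 1 library left out (203 without female library 2, 60 without female library 3, 30 without male library 1). Without TMM it was 89, of which 50 were male-biased, and without the filter 104 (52 male-biased); of the 41 above, 20 were male-biased. The count of 2 on the activity list was 8 and 7 with 1 RUVr factor in edgeR and DESeq2, 1 to 5 with 1 library left out, and 1 without TMM, with upper quartile scaling, without the filter, with the replicate block and with both GC fits. The number of arm ratios past the threshold, 0, was 1 with a pseudocount of 2 and 0 to 2 with 1 library left out (2 without female library 1). The causes were not tested. The dominant arm of each hairpin was the same with each library left out (log2 ratios of 3.58 to 3.805 and -1.17 to -0.88) and with a pseudocount of 2, although 5 libraries cannot reach the threshold. Same-numbered libraries of the sexes correlated in their deviations at -0.08, 0.03 and 0.16, and differently numbered ones at -0.18 to 0.15. No pairing by number was seen, but 3 libraries per sex are too few to exclude one. With the replicate block 92 miRNAs passed the threshold. The log2 fold changes were then 0.16, -0.14, 0.57 and -0.12 for miR-132-3p, miR-132-5p, miR-212-3p and miR-212-5p.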
